A study of Mus musculus with 16 samples.

Results

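Prokr1 and Prokr2, the 2 prokineticin receptor genes, are described here in lumbar dorsal root ganglia of mice, out of 24982 gene entries counted in the same libraries. They were selected on measured values: Prokr2 was chosen for its lower level in knock-in ganglia and for a higher level after joint inflammation in wild type, and Prokr1 was taken with it as the other member of the family. Every contrast of the design was in view when the pair was chosen, so the levels and fold changes of both receptors are descriptions and carry no test. Lumbar ganglia 4 to 6 of the injected side came from C57BL/6 mice aged 10 to 12 weeks. The wild-type (WT) animals and the knock-in (KI) animals, whose allele the labels name TrkA/C without describing the construct, had vehicle or CFA (complete Freund's adjuvant, which inflames the joint) injected into the ankle 14 days before the ganglia were dissected. WT vehicle, WT CFA, KI vehicle and KI CFA had 4 libraries each, and each library pooled 6 ganglia of 2 mice.

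Prokineticins are small secreted proteins that act through a pair of closely related G protein-coupled receptors. Both receptors signal mainly through Gq and phospholipase C, which release calcium from stores and activate protein kinase C, and they can also couple to other G proteins. In dorsal root ganglia they are carried by sensory neurons, among them neurons with the heat and capsaicin channel Trpv1, and prokineticin 2 (also called Bv8) lowers pain thresholds and is released by granulocytes in inflamed tissue. The accessory protein MRAP2 is known to bind prokineticin receptors and to dampen their signalling.

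Library totals ran from 22742209 counts in the shallowest WT vehicle library to 40910947 in the deepest KI CFA library. All 9 pan-neuronal markers listed, such as Tubb3 and Isl1, were above 0 in every library, as were the 8 Schwann cell and 6 satellite glia markers. Ntrk3, which encodes TrkC, lay between 29.3 and 61.4 CPM (counts scaled to the library size, with TMM factors in all CPM values given) in the 8 WT libraries and between 99.1 and 138 in the 8 KI libraries. The library titled WT CFA 1 carries a knock-in genotype tag, and its Ntrk3 level was 48.4 CPM, within the WT range.

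The receptor genes lie on separate chromosomes in the mm10 build (GRCm38). RefSeq places Prokr1 (Entrez 58182) on chromosome 6, from 87578586 to 87590762, and Prokr2 (Entrez 246313) on chromosome 2, from 132369705 to 132385502. GENCODE puts both on the minus strand, and it models a Prokr2 transcript that runs further, to 132337733. In the GENCODE transcripts paired with RefSeq records, each coding region has 2 exons. The first coding exon has 485 bases in Prokr1 (87588377 to 87588861) and 449 in Prokr2 (132381172 to 132381620), and the second has 694 bases in both (87581223 to 87581916 and 132373397 to 132374090). Of 1143 aligned coding bases, 921 were identical (80.58%). Because the reads had 50 bases, the transcripts were compared in windows of that size: no window was shared between the receptors, and none of the 4181 windows of Prokr1 or the 4437 windows of Prokr2 occurred, on either strand, in a transcript of another gene. The closest pair of windows lies in the second coding exon and is printed because it is where reads of the receptors are hardest to tell apart. It begins at base 940 of the Prokr1 coding region and at base 904 of that of Prokr2, capitals mark the 47 identical bases, and the 3 bases in lower case differ.
Prokr1: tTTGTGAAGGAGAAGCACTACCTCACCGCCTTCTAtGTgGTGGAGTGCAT
Prokr2: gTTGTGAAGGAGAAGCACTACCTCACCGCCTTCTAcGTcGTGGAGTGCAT

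Prokr2 was the receptor that set the genotypes apart. It was lower in all 8 KI libraries (8.17 to 10.6 CPM) than in any WT library (13.7 to 27.4 CPM). In WT vehicle, Prokr2 had 16.2, 14.9, 15.7 and 13.7 CPM in replicates 1 to 4, a mean of 15.1 ± 1.10 (SD, n = 4). In WT CFA it had 18.8, 22.4, 27.4 and 20.2 CPM, a mean of 22.2 ± 3.79 (SD, n = 4). All 4 WT CFA libraries were above all 4 WT vehicle libraries, with replicate 3 the highest of the study. In KI vehicle it had 10.6, 8.80, 8.80 and 8.72 CPM, a mean of 9.24 ± 0.929 (SD, n = 4). In KI CFA it had 8.91, 8.17, 9.49 and 9.39 CPM, a mean of 8.99 ± 0.603 (SD, n = 4). The KI groups overlapped each other, and neither overlapped a WT group. The order of the group means was therefore WT CFA, WT vehicle, KI vehicle and KI CFA, and only the last pair in that order overlapped.

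**Figure D1:**
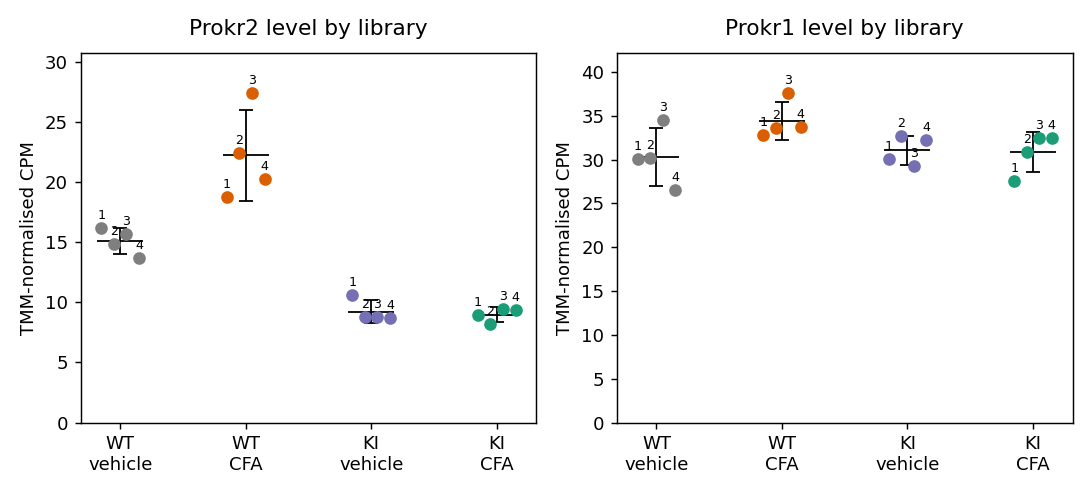
Level of Prokr2 (left) and Prokr1 (right) in each library, in TMM-normalised CPM on a linear axis from 0. Points are libraries with their replicate numbers, and bars give the mean ± SD of 4 libraries; Prokr2 lies at 13.7 CPM or more in WT and at 10.6 CPM or less in KI, whereas Prokr1 lies between 26.5 and 37.6 CPM throughout.

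As log2 fold changes from the fit of all genes, Prokr2 was at -0.71 ± 0.11 (SE) in KI against WT with vehicle, which is 0.611 of the WT level. With CFA it was at -1.30 ± 0.11, which is 0.405 of the WT level. edgeR, at a Benjamini-Hochberg adjusted p under 0.05 over 15507 genes, called 4.34% of all genes with vehicle and 2.84% with CFA. Prokr2 was among the called genes in both and Prokr1 in neither, and since the pair was chosen on these contrasts nothing is read from that count. Of the genes tested, 232 had a more negative fold change than Prokr2 with vehicle and 49 with CFA. Between injections, Prokr2 was at 0.56 ± 0.11 for CFA against vehicle in WT and at -0.04 ± 0.11 in KI. The difference of these values, the interaction of genotype and injection, was -0.59 ± 0.15. edgeR called no gene (0%) for CFA in WT, for CFA in KI or for the interaction, with 1079, 881 and 976 genes at an unadjusted p under 0.05. DESeq2 called 24, 15 and 0 genes in the same comparisons, and limma-voom called none.

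The spread of Prokr2 was widest in WT CFA, with a coefficient of variation of 17.1%, against 7.29% in WT vehicle, 10.1% in KI vehicle and 6.70% in KI CFA. Counting error alone gives 3.85% at the 590 to 770 counts of the WT CFA libraries and 5.95% at the 242 to 332 counts of the KI vehicle libraries. WT CFA 3 carried the largest part of that spread: without it the CFA difference in WT was 0.44 and the genotype difference with CFA was -1.18. Without WT CFA 1, the library with the knock-in tag, the same differences were 0.63 and -1.37. In KI vehicle, replicate 1 stood above the other 3 libraries, and without it the genotype difference with vehicle was -0.78 and the CFA difference in KI was 0.04. The source names of the samples carry numbers whose meaning is not given. With numbers up to 5, Prokr2 averaged 15.5 CPM in 2 WT vehicle libraries and 20.6 in 2 WT CFA libraries, and with higher numbers 14.7 and 23.8 CPM in 2 libraries each. In WT the numbers are 1, 2, 8 and 9 with vehicle and 4 to 7 with CFA. As none is shared, this split does not match the groups by number. In KI it was uneven: 9.41 CPM in 3 libraries and 8.72 in 1 with vehicle, and 8.91 in 1 and 9.01 in 3 with CFA.

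Prokr1, the receptor with the higher level, stayed in a narrow band. In WT vehicle it had 30.1, 30.2, 34.5 and 26.5 CPM in replicates 1 to 4, a mean of 30.3 ± 3.30 (SD, n = 4). In WT CFA it had 32.8, 33.6, 37.6 and 33.7 CPM, a mean of 34.4 ± 2.17 (SD, n = 4). In KI vehicle it had 30.0, 32.7, 29.3 and 32.2 CPM, a mean of 31.1 ± 1.64 (SD, n = 4), and in KI CFA it had 27.6, 30.8, 32.4 and 32.5 CPM, a mean of 30.8 ± 2.3 (SD, n = 4). WT CFA overlapped WT vehicle but not the KI groups, although narrowly: the highest library had 32.7 CPM in KI vehicle and 32.5 CPM in KI CFA, just under the lowest WT CFA library at 32.8 CPM. The other pairs of groups overlapped. The WT CFA mean was the highest, and the other 3 means lay within 1 SD of each other. The log2 fold change of Prokr1 in KI against WT was 0.04 ± 0.08 with vehicle and -0.16 ± 0.08 with CFA. For CFA against vehicle it was 0.18 ± 0.08 in WT and -0.01 ± 0.08 in KI, with an interaction of -0.19 ± 0.11. The highest library of Prokr1 was WT CFA 3, as for Prokr2.

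A ratio of the receptors within a library does not depend on scaling between libraries. Levels were divided by transcript length (4230 bases for Prokr1, 4486 for Prokr2) for this comparison, and Prokr2 is given as its percentage of the sum of both. That share was 32.0 ± 1.56% (SD, n = 4) in WT vehicle and 37.6 ± 2.54% in WT CFA. It was 21.9 ± 2.23% in KI vehicle and 21.6 ± 1.38% in KI CFA. The lowest WT library had 30.0% and the highest KI library 25.0%, and the WT CFA libraries (35.1 to 40.7%) were all above the WT vehicle libraries (30.0 to 33.6%). Prokr1 was thus at 1.45 to 2.33 times the per-length level of Prokr2 in WT and at 3.00 to 4.00 times in KI. The size of these shares and ratios depends on the lengths used, and the annotation used for counting is not given. All GENCODE exons merged give 7919 bases for Prokr2 and 4230 for Prokr1. Those lengths would lower the share of Prokr2 in every library and leave the order of the libraries as it is. In CPM per kilobase, the summed level of both receptors was 10.5 ± 0.971 (SD, n = 4) with vehicle and 13.1 ± 1.35 with CFA in WT, and 9.40 ± 0.354 and 9.29 ± 0.611 in KI. In these sums the WT vehicle and KI vehicle libraries overlapped, and the WT CFA libraries were above all others. The choice of Prokr2 for its pattern enters this share too.

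**Figure D2:**
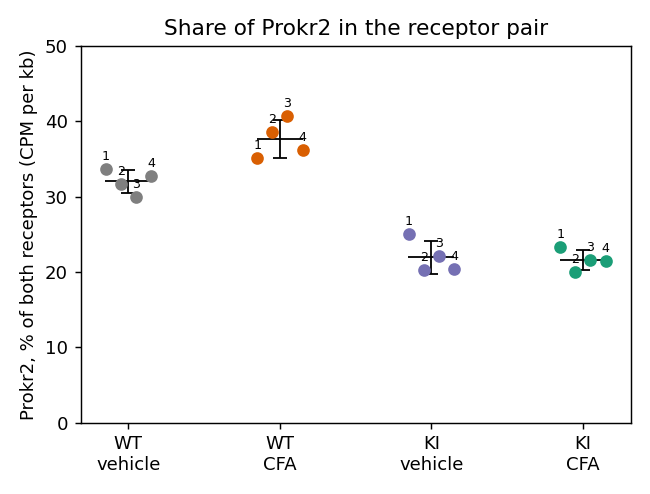
Prokr2 as a percentage of the summed per-length level of Prokr1 and Prokr2, in each library. Points are libraries with their replicate numbers, and bars give the mean ± SD of 4 libraries; the 8 WT libraries lie at 30.0% or more and the 8 KI libraries at 25.0% or less.

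In bulk ganglia, fewer cells that carry a receptor and less receptor RNA per cell cannot be told apart. Set against the summed level of the 9 pan-neuronal markers in the same library, Prokr2 had 1.24 to 2.31 CPM per 1000 CPM of marker in WT and 0.706 to 1.00 in KI. Prokr1 had 2.40 to 3.17 in WT and 2.50 to 3.22 in KI on that scale. The genotype difference of Prokr2 relative to these markers was -0.63 with vehicle and -1.26 with CFA, and its CFA difference was 0.50 in WT and -0.13 in KI. Of the 9 pan-neuronal markers, 1 fell in KI under either injection: Tubb3, a neuronal tubulin, at -0.16 with vehicle (edgeR adjusted p = 0.0419) and -0.17 with CFA (edgeR adjusted p = 0.0344). The share of all genes called was 4.34% with vehicle and 2.84% with CFA.

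Peptidergic nociceptor markers moved with genotype beside Prokr2. Of the 10 listed, 8 fell and 1 rose in KI under either injection (all genes called: 4.34% with vehicle and 2.84% with CFA), and all 10 were above 0 in every library. Trpv1, Calca, Calcb and Tac1 are on this list and among the pathway genes. Their median log2 fold change was -0.53 with vehicle and -0.61 with CFA. In the WT libraries their summed level was 2189 to 3253 CPM with vehicle and 2224 to 2586 CPM with CFA, and in the KI libraries 1317 to 1442 CPM and 1316 to 1565 CPM. For CFA against vehicle none of the 10 was called, and the median was -0.05 in WT and -0.01 in KI. The highest peptidergic sum was in WT vehicle 4, the library with the lowest Prokr2 level of that group. Markers of A-fibre and non-peptidergic neurons moved the other way, those of itch neurons and C-fibre touch neurons (C-LTMR) less clearly. Of 10 A-fibre markers, among them Ntrk3, 5 rose with vehicle and 6 with CFA (medians 0.43 and 0.55). Of 8 non-peptidergic nociceptor markers 4 and 2 rose (medians 0.29 and 0.17), with none falling in either list. Of 7 itch neuron markers 0 were called under either injection (medians 0.14 and 0.11). Of 5 C-LTMR markers 1 rose with vehicle and 0 were called with CFA (medians 0.32 and 0.18). Endothelial markers, a second known site of prokineticin receptors, had 0 of 8 called for genotype, with sums of 110 to 172 CPM in the WT libraries and 117 to 150 CPM in the KI libraries. Skeletal muscle markers ranged from 4.07 CPM to 930 CPM, with 6 of 11 called as rises in KI with vehicle, beside 4.34% of all genes called. The highest were KI vehicle 1 and 4, with 930 and 867 CPM, and without both of them the genotype difference of Prokr2 with vehicle was -0.78. The part of these cell types in the receptor levels was not tested otherwise.

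The ligand genes were at the edge of detection. Prok1, which encodes prokineticin 1, had 12 counts in all 16 libraries together, was at 0 in 9 of them and reached 3 counts at most. Prok2 had 23 counts, was at 0 in 9 libraries, and was highest in KI CFA 3 with 8 counts (0.208 CPM). Depending on library size, 3 counts correspond to between 0.0733 and 0.132 CPM. Neither ligand passed the filter on low counts, so neither was tested, and at this depth no difference between groups was detectable. KI CFA 3 also had the highest summed level of the 12 neutrophil markers, 301 CPM against 9.86 to 41.9 CPM in the other 15 libraries. The next highest Prok2 counts, 4 and 5, were in WT vehicle 3 and 4, whose neutrophil sums were 10.4 and 41.9 CPM. The part of these cells in the Prok2 counts was not tested.

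Among the accessory proteins, Mrap2 was the 1 of 6 listed genes that was called in the genotype comparisons. Of all genes, 4.34% were called with vehicle and 2.84% with CFA. In WT vehicle Mrap2 had 12.2, 12.7, 11.1 and 13.1 CPM in replicates 1 to 4, and in WT CFA 11.3, 11.7, 11.7 and 10.6 CPM. In KI vehicle it had 9.37, 3.29, 5.25 and 6.41 CPM, and in KI CFA 4.71, 2.88, 2.34 and 5.85 CPM. All 8 KI libraries were below all 8 WT libraries, and the KI libraries differed more among themselves, with a coefficient of variation of 41.9% and 41.3% against 6.92% and 4.54% in WT. Mrap2 fell by 1.02 ± 0.26 on the log2 scale with vehicle (edgeR adjusted p = 0.0333) and by 1.52 ± 0.26 with CFA (edgeR adjusted p = 0.00248). The call with vehicle ended in a fit of only the groups compared (-1.02, edgeR adjusted p = 0.0705) and without WT vehicle 3 or 4 or KI vehicle 2, 3 or 4 (-1.06 to -0.81), and the call with CFA held in each alternative run. Its values for CFA against vehicle were -0.12 ± 0.25 in WT and -0.62 ± 0.26 in KI, neither of them called (edgeR adjusted p = 0.904 and 0.869). The other 5 accessory genes were not called. Mrap, the paralog of Mrap2, was at -0.62 with vehicle and -0.08 with CFA. The arrestin gene Arrb1 was at -0.15 and the receptor kinase gene Grk2 at 0.14 with CFA (edgeR adjusted p = 0.213 and 0.336), and Grk3 was at 0.28 with vehicle (edgeR adjusted p = 0.101), called as a rise without WT vehicle 1.

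edgeR, in the fit reported, called none of the 18 genes for G proteins and effectors downstream of the receptors in any of the 5 comparisons. Over all genes it called 4.34% for genotype with vehicle, 2.84% with CFA, and none for CFA in either genotype or for the interaction. For genotype with vehicle the count among the 18 depended on the setting: in 8 of 25 alternatives at least 1 was called, always as a rise. DESeq2 called 4 (Gnaq, Plcb3, Itpr1 and Prkca), as did edgeR without WT vehicle 2 (Gnaq, Plcb3, Prkca and Stat3). Over all genes DESeq2 called 1487 with vehicle, against 673 in the fit reported, and the runs without 1 library called 284 to 905. The share of 4.34% therefore does not apply to those settings. In the other 4 comparisons no alternative run called any of them. With vehicle their median log2 fold change for genotype was 0.05, against 0.00 over all genes tested. In the fit reported, the nearest to the threshold were Prkca, a protein kinase C gene, at 0.33 ± 0.09 (edgeR adjusted p = 0.0504), the calcium store receptor gene Itpr1 at 0.38 ± 0.11 (edgeR adjusted p = 0.0582), the phospholipase C gene Plcb3 at 0.21 ± 0.06 (edgeR adjusted p = 0.0599) and Gnaq, the Gq alpha subunit, at 0.20 ± 0.06 (edgeR adjusted p = 0.0663). For each of these 4 genes the KI vehicle libraries were all above the WT vehicle libraries. As the 4 were picked by smallest p in this comparison, that separation adds nothing. The share of all genes that separate so was not counted. With CFA the same 4 were at 0.14, 0.09, 0.15 and 0.09, and their adjusted p ranged from 0.297 to 0.847. Mapk3, Akt1 and Stat3, kinases and a transcription factor further downstream, lay between -0.10 and 0.17 in both genotype comparisons.

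Of 7 channel genes whose currents prokineticins are known to modulate, 2 fell in KI with vehicle, and 2 fell and 1 rose with CFA. Over all genes, 4.34% were called with vehicle and 2.84% with CFA. Trpv1 fell by 0.45 ± 0.09 with vehicle (edgeR adjusted p = 0.0121) and by 0.59 ± 0.09 with CFA (edgeR adjusted p = 0.00153). With vehicle its level was 263 to 300 CPM in WT and 167 to 227 CPM in KI, and with CFA 251 to 287 CPM and 155 to 202 CPM, so the genotypes did not overlap. Asic3, an acid-sensing channel of muscle and joint afferents, fell by 0.39 ± 0.07 (edgeR adjusted p = 0.00472) and by 0.41 ± 0.07 (edgeR adjusted p = 0.00218); its call with vehicle ended without KI vehicle 1 and 4 together (-0.32). Asic1 rose by 0.32 ± 0.08 with CFA (edgeR adjusted p = 0.0365), a call that ended without any WT CFA library or KI CFA 1, 2 or 3 (0.26 to 0.34), and it was at 0.29 ± 0.08 with vehicle (edgeR adjusted p = 0.0506), where 8 of 25 alternatives called it. These were RLE size factors, no filter, DESeq2, the replicate block, and edgeR without WT vehicle 2, KI vehicle 1 or KI CFA 2 or 4 (0.28 to 0.34). The irritant channel Trpa1 was at 0.00 with vehicle and -0.20 with CFA (edgeR adjusted p = 0.318), and the ATP-gated channels P2rx2 and P2rx3 and the acid-sensing channel Asic2 were not called either.

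Of the 3 peptide genes of nociceptors that respond to prokineticins, 2 fell under both injections. That stands beside 4.34% of all genes called with vehicle and 2.84% with CFA. All 3 are also on the peptidergic marker list, so these calls are counted there too. Calca, which encodes the vasodilator peptide CGRP, fell by 0.91 ± 0.13 with vehicle (edgeR adjusted p = 0.000735) and by 0.71 ± 0.13 with CFA (edgeR adjusted p = 0.00365). Tac1, the substance P gene, fell by 0.57 ± 0.11 (edgeR adjusted p = 0.00599) and by 0.49 ± 0.11 (edgeR adjusted p = 0.0132), and its call with CFA ended without WT CFA 3 or KI CFA 2 or 3 (-0.45 to -0.44). Calcb, the second CGRP gene, was at -0.42 ± 0.13 with vehicle and -0.28 ± 0.12 with CFA and was not called (edgeR adjusted p = 0.0594 and 0.329); with vehicle it was called as a fall by DESeq2 and by edgeR without WT vehicle 1 or 2. With both injections the fold change of Calca in KI was the largest in size of these 3, and Calca and Tac1 were highest in WT vehicle 4, without which they were at -0.69 and -0.43 with vehicle and still called.

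Over the 36 genes of the 5 lists, 34 passed the filter on low counts. With vehicle 5 of the 34 fell and none rose, beside 4.34% of all genes called; with CFA 5 fell and 1 rose, beside 2.84% of all genes. The median fold change of the 34 was 0.01 with vehicle and -0.02 with CFA, and that of all genes was 0.00 in both. The count with vehicle was 8 without WT vehicle 1, 11 without WT vehicle 2 and 11 with DESeq2. The share of 4.34% is that of the fit reported (673 genes) and does not apply to these runs. Over all genes DESeq2 called 1487 with vehicle, and the runs without 1 library called 284 to 905. For CFA against vehicle, in either genotype, and for the interaction, edgeR, DESeq2 and limma-voom called 0 of the 34.

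**Figure D3:**
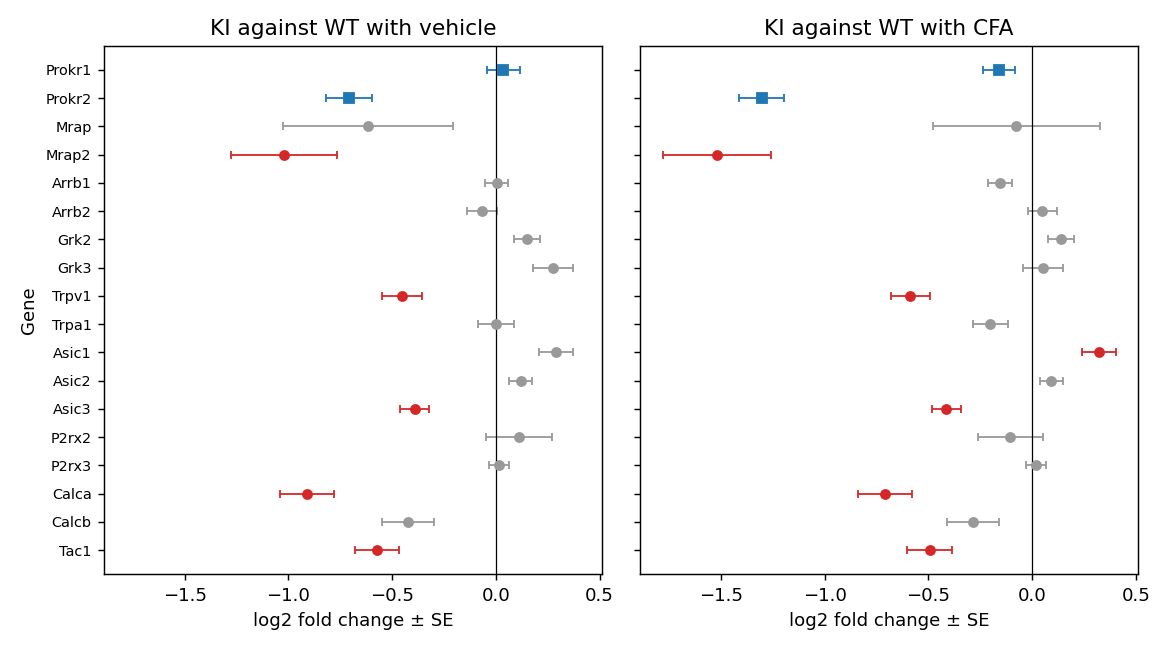
Log2 fold change ± SE of both receptors (blue squares, not tested) and of the 16 genes tested on the lists of accessory proteins, channels and peptides, in KI against WT with vehicle (left) and with CFA (right). Red circles are genes called by edgeR at an adjusted p under 0.05 and grey circles are genes not called; Prokr2 lies at -0.71 and -1.30 and Mrap2 at -1.02 and -1.52.

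Genes with the level pattern most like that of Prokr2 were found among 13738 other tested genes whose mean level reached 1 CPM. Likeness was the root mean square difference of log2 CPM over the 16 libraries, after centring each gene on its mean. The nearest was Kcnv1, a modifier subunit of potassium channels, at 0.210. Trappc3l (0.234), Ptgir, the prostacyclin receptor (0.241), and Syndig1l (0.246) followed. Also among the nearest 10 were Cnih3, an auxiliary protein of AMPA receptors (0.259), the thrombin receptor gene F2r (0.259), the potassium channel gene Kcnq5 (0.260), the nicotinic receptor gene Chrna7 (0.261) and Ngfr, the neurotrophin co-receptor p75 (0.264). Because they were picked as the nearest, no test is given for them. With the Spearman rank order as the measure, 1 of these 10 genes remained among the nearest 10, and without WT vehicle 4 the distance measure kept 6.

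These 10 genes shared the genotype step of Prokr2 more closely than its CFA step. Selection enters both: the distance weighs the larger genotype step most, and Prokr2 was chosen for its higher level with CFA in WT. In KI against WT their log2 fold changes ran from -1.02 to -0.56 with vehicle and from -1.20 to -0.72 with CFA, which includes the -0.71 of Prokr2 with vehicle and not its -1.30 with CFA. For CFA against vehicle in WT they ran from 0.03 to 0.24, below the 0.56 of Prokr2, and in KI from -0.19 to 0.03. Kcnv1 was the nearest in that respect too, with group means of 42.5 CPM (vehicle) and 50.2 CPM (CFA) in WT and of 23.4 and 23.2 CPM in KI.

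**Figure D4:**
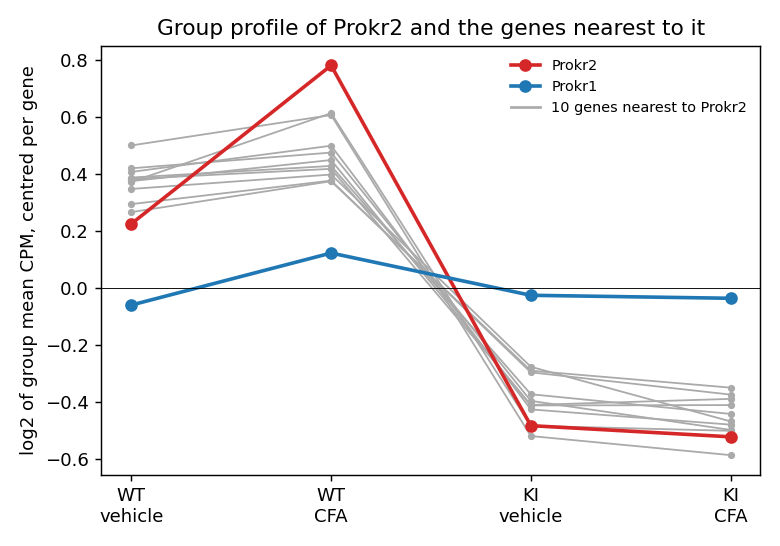
Log2 of the group mean CPM, centred on each gene's mean over the 4 groups, for Prokr2 (red), Prokr1 (blue) and the 10 genes nearest to Prokr2 (grey). Lines join the groups of 1 gene and are no time course. The grey lines follow the genotype step of Prokr2, and in WT CFA Prokr2 lies above them. Prokr2 was chosen for its pattern and the grey genes for their likeness to it.

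Within groups, the receptors varied together only in part. Over the 16 libraries, with each group's mean removed, the deviations of Prokr1 and Prokr2 had a Pearson r of 0.464 and a Spearman rho of 0.409. These are descriptions, and the points share library depth and composition. The 5 genes whose deviations followed those of Prokr2 most closely were Fgf12, a regulator of sodium channels (r = 0.938, rho = 0.929), Zfp92 (0.873, 0.882), Vps4b (0.872, 0.841), the neuropeptide Y receptor gene Npy2r (0.861, 0.738) and Gsdme (0.859, 0.759). For Prokr1 they were Top3a (r = 0.889), Cdk12 (r = 0.885), Rab11fip2 (r = 0.862), Rb1 (r = 0.860) and Sel1l3 (r = 0.852), with rho from 0.803 to 0.924. Each set was picked as the 5 highest of 13738 candidates, so high values follow from the pick. The 2 sets had no gene in common, which from so many candidates says nothing about the receptors.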

How the data were processed

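Raw read counts per gene were deposited by the authors, not normalized. The submitters' processing notes name HTSeq 0.6.1p1, TopHat2 2.1.1 and Bowtie2 2.3.5.1, beside SAMtools 1.5, FastQC and bcl2fastq 2.20, and the genome mm10; strand mode and annotation are not given in the sources used here. Per the labels' protocols, 150 ng of RNA went into each poly-A library, with 15 cycles of PCR and single-end reads of 50 nucleotides. With strand mode not given, reads of a gene and of an antisense partner may not be told apart. Because libraries are pools of 2 mice, p-values measure the spread between pools. The labels do not tie libraries to the 3 lanes. Of the gene entries, 28 have no identifier (0.192% of counts) but a symbol, and stayed in.

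Groups came from the sample titles. edgeR 4.0.16 (R 4.3.3) fitted 1 mean per group to all 16 libraries by quasi-likelihood with TMM factors, after filterByExpr left 15507 genes, for 5 comparisons. The threshold was 0.05 for p-values after Benjamini-Hochberg adjustment. The script was tested on simulated data. CPM are TMM-normalised, and log2 CPM used a prior count of 2. Alternatives were other size factors, no filter, DESeq2 1.42.0, limma-voom (limma 3.58.1), only the groups compared, a replicate block, the source name number, left-out libraries and, chosen after seeing the data, receptor levels over summed pan-neuronal markers. Transcript sequences, lengths and exons came from GENCODE vM21, positions from RefSeq (GRCm38.p6). Per library, intervals on counts would cover counting error only.

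The receptors and all lists were chosen with earlier results of these data known. Named genes were the receptors, their ligands, Mrap2, pathway genes called in a comparison, at most 4 others per list by smallest p, and the genes most like each receptor; Mapk3, Akt1, Stat3, Tubb3, Asic2, P2rx2 and P2rx3 were named after their values were seen. Some genes are not reported here by name. Same-numbered replicates did not deviate together (r from -0.205 to 0.133), so the main fit has no block.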

Additional observations from a re-analysis of the deposited data

Results flagged for a closer look

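In 7 of the 40 gene and group combinations checked, 1 library stood apart from the other 3 of its group by more than Dixon's critical value for 4 samples. For normally spread values, chance flags about 1 in 20 groups. A group with counts in only 1 library is flagged whatever that count, so this rate does not hold for the ligand genes. Nothing is read from the total of 7. Prokr2 was at 10.6 CPM in KI vehicle 1 against 8.72 to 8.80 in the others. In WT vehicle 4, Calca was at 1791 CPM against 1024 to 1123, and Tac1 at 367 CPM against 247 to 263. The ligand genes gave the other flags, all at a handful of counts: Prok1 at 0.0576 CPM in WT CFA 4, and Prok2 at 0.0690 CPM in WT CFA 2 and 0.0360 CPM in KI vehicle 4, each against 0 in the rest of its group, and Prok2 at 0.208 CPM in KI CFA 3 against at most 0.0318.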

How the results depend on the processing

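All 10 receptor fold changes stayed within 1 SD of their replicates in every alternative run. Leaving out 1 library of 4 can hardly move a group mean that far, so for those runs this outcome follows from the measure. The ranges are therefore given. Prokr2 in KI against WT ranged from -0.78 to -0.63 with vehicle and from -1.37 to -1.18 with CFA, and its CFA difference in WT from 0.44 to 0.63. With the replicate block these were -0.71, -1.30 and 0.55; the block changed 1 pathway call, adding Asic1 with vehicle, and the numbers are not stated to pair libraries. Genes called with vehicle (673) were 1487 with DESeq2, 214 in a fit of only the groups compared, 132 without KI vehicle 1 and 4, and 284 to 905 leaving out 1 library (367 and 401 without WT vehicle 3 or 4, and 354, 408, 410 and 284 without KI vehicle 1, 2, 3 or 4). With CFA (441) they were 663 with DESeq2 and 241 to 652 leaving out 1 library (289 without WT CFA 2, 267 and 241 without KI CFA 2 or 3). For CFA in WT (0) they were 24 with DESeq2 and 0 to 2 leaving out 1 library (2 without WT CFA 1); for CFA in KI (0), 15 with DESeq2, 1 with only the groups compared and 0 to 53 leaving out 1 library (53 without KI vehicle 2). Pathway genes called with vehicle (5) were 11 with DESeq2 and 4 to 11 leaving out 1 library. Of the 10 genes most like Prokr2, 1 was shared when likeness was the Spearman rank order and 6 to 10 leaving out 1 library. The cause of these shifts was not tested. Only the groups compared could not be used for the interaction, which needs all 4. Depth limits the ligand genes.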
